A study of Homo sapiens with 24 samples.

Results

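Interferon-stimulated genes are the antiviral genes that cells switch on after interferon binds its receptors or after viral-type nucleic acid is sensed in the cytoplasm. A list of 33 such genes was followed in 4 neuroblastoma cell lines treated with GSK-J4, an inhibitor of the histone H3 demethylases KDM6A and KDM6B. The genes were taken by name, from a list of well-known members of the response. Earlier results of these data were known when the list was chosen. They are 33 of the 39772 genes that have a row in at least 1 of the 4 tables analysed. By line, members made up 31 of 33561 genes with a row (LAN5), 27 of 30271 (IMR5), 31 of 32760 (SK-N-FI) and 33 of 29328 (SK-N-BE(2)), and 24 members had a row in all 4 tables.

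The study sequenced polyadenylated RNA from 24 libraries in 8 groups of 3. LAN5 and IMR5 carry MYCN amplification and are labelled sensitive to GSK-J4, SK-N-FI has unamplified MYCN and is also labelled sensitive, and SK-N-BE(2) is MYCN-amplified and labelled resistant. Each line was left untreated or given GSK-J4 at 1 µM for 72 hours. Each line is a single cultured tumour line, so MYCN status and sensitivity cannot be told apart from other differences between the lines. The labels do not say whether the 3 libraries of a group came from separate cultures, so the p-values measure only the spread between these libraries.

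The tables give, for each gene and line, a mean normalized count over the 6 libraries, a log2 fold change with its standard error (SE) and a DESeq2 p-value adjusted by the Benjamini-Hochberg method. A gene is called higher or lower where the adjusted p is under 0.05. Values of single libraries were not analysed here, so neither a spread over libraries nor the depth of a library is given. A deposited change below is the log2 fold change of the authors' deposited table for the line named, with its SE after the ± sign. The deposited fold changes are drawn towards 0 by DESeq2's prior, most of all in SK-N-BE(2), and sizes of folds below come from values with that prior removed. The columns do not name the direction of the contrast. GSK-J4 was taken as the numerator because BBC3, a pro-apoptotic gene that the study is known to report as induced, was positive in the sensitive lines, where the authors' deposited tables give log2 changes of 2.62 (LAN5), 3.31 (IMR5) and 1.88 (SK-N-FI). In SK-N-BE(2), the metallothionein gene MT2A gave a positive value as it did in the other lines, 1.47 in the authors' deposited table. The table taken as SK-N-FI is named by an abbreviation and was assigned as the one left over after the other 3 were matched by name.

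In the textbook pathway, the RNA helicases RIG-I (gene DDX58) and MDA5 (gene IFIH1) detect viral RNA and signal through MAVS and TBK1 to induce interferons. Secreted type I interferon binds IFNAR1 and IFNAR2, whose kinases JAK1 and TYK2 activate STAT2. STAT2 and IRF9 are part of a complex that binds the interferon-stimulated response element (ISRE) in the promoters of antiviral genes, while interferon gamma acts through gamma-activated sites (GAS). Low activity of interferon-response genes has been described in MYCN-amplified neuroblastoma.

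Promoter windows of 300 bases, from 250 bases before to 50 bases after a RefSeq gene start on GRCh38.p14, were found for 25 of the 33 members. DHX58, IRF7, OAS2, OASL, MX2, IFIT2, IFITM2 and USP18 were not matched. The ISRE core was searched as GAAANNGAAA on both strands, and it was present in 18 of 25 members (72%) against 4.38% of the 27305 genes in the table. Sites with another spacing were not counted, such as GAAACGAAA in windows of DDX58, OAS1 and XAF1. The GAS core, TTCNNNGAA, was present in 8 of 25 members (32%) against 9.38% of all genes, and the cores overlap in some windows, IFITM1 among them. The windows below belong to members called in several lines or to neighbouring members described together, and capitals mark a core of either kind.

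IRF1, which rose in all 3 sensitive lines, has a GAS core that begins 124 bases before its start and no ISRE core in this window (chr5:132490724-132491023, minus strand).
IRF1: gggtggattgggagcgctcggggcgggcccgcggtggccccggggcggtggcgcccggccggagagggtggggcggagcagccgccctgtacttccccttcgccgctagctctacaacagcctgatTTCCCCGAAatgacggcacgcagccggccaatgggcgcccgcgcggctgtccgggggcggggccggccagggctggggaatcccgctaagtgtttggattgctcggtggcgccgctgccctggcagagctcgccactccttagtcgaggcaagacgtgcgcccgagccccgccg
IFIT1, which fell in all 3 sensitive lines, has a pair of ISRE cores that begin 116 and 103 bases before its start (chr10:89392373-89392672, plus strand).
IFIT1: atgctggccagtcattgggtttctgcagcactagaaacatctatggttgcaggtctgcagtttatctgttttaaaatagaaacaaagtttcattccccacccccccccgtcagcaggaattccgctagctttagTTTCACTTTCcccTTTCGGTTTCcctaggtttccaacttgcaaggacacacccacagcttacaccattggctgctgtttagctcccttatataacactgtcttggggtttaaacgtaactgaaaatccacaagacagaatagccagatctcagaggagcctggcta
ISG20, with the highest rise in LAN5 among members with a mean of at least 20, has 1 ISRE core 69 bases before its start (chr15:88638766-88639065, plus strand).
ISG20: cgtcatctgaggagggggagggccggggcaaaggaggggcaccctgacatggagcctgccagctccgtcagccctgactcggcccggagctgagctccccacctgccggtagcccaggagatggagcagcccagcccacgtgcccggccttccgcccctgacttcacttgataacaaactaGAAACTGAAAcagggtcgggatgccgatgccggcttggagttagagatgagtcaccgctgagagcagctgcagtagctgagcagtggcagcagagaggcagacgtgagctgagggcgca
IFITM1 and IFITM3, neighbours on chromosome 11 that rose in IMR5, each have 2 ISRE cores (chr11:313790-314089, plus strand, and chr11:320811-321110, minus strand).
IFITM1: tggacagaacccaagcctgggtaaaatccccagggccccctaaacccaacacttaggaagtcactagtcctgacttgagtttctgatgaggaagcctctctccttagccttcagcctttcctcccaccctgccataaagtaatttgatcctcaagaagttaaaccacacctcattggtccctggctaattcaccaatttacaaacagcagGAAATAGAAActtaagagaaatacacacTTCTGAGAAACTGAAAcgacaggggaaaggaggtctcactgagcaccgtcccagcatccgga
IFITM3: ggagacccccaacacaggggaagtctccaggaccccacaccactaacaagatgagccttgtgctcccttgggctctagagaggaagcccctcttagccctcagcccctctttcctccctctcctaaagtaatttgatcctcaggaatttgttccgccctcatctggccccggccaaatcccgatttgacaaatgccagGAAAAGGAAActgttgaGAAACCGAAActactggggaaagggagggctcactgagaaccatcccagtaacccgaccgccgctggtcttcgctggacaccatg
DTX3L and PARP9 are transcribed away from each other on chromosome 3 and overlap at their starts. The windows printed here (chr3:122564088-122564387, plus strand, and chr3:122564251-122564550, minus strand) hold the same ISRE core, at chr3:122564332-122564341. PARP9 has another window, not printed (chr3:122564735-122565034, minus strand), that holds neither core.
DTX3L: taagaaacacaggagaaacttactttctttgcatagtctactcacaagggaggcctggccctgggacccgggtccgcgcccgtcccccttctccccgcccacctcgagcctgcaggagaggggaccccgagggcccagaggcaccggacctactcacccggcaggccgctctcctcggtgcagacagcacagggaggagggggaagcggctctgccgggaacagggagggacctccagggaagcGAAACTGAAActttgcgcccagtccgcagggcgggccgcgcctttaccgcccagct
PARP9: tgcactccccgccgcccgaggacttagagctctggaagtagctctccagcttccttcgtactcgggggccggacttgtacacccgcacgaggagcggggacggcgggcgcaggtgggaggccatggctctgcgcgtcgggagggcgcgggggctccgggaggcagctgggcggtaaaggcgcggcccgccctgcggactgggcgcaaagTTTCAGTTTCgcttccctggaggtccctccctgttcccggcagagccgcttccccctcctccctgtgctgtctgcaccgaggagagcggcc

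The response of the list differed by line. In IMR5, 12 of 25 tested members rose and 3 fell. In LAN5, 8 of 28 rose and 2 fell, while in SK-N-FI 1 of 29 rose and 9 fell. In SK-N-BE(2) none of the 17 tested members was called by DESeq2, and 16 more had no adjusted p. In that line 2 of all 33 (IFIH1, at a mean of 3.21, and IFIT2) had an unadjusted p under 0.05. Over all genes with a p-value there the share was 4.96%, so this count shows nothing particular to the members. In bulk RNA, fewer cells expressing a gene and less RNA per cell cannot be told apart. Several calls rest on low means: testing only means of at least 50 left 5 calls in LAN5 and 7 in IMR5, and requiring a log2 change of at least 0.5 left 6 in SK-N-FI.

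Much of the transcriptome also changed in the sensitive lines, and the members' counts are read against it. In LAN5, 41.7% of 25753 tested genes were called, 22.5% higher and 19.2% lower, and the members' shares were 28.6% higher and 7.14% lower. In IMR5, 44.1% of 22594 genes were called, 22.6% higher and 21.6% lower, against 48% and 12% of members. In SK-N-FI, 31.6% of 22576 genes were called, 16.8% higher and 14.8% lower, against 3.45% and 31.0% of members. In SK-N-BE(2), 2.48% of 13407 genes were called, 1.62% higher and 0.858% lower. The share of members called in LAN5 (35.7%) and in SK-N-FI (34.5%) was thus near the background, and the larger gaps were in the split between directions. The median deposited log2 change of tested members was 0.47 (LAN5), 0.68 (IMR5), -0.09 (SK-N-FI) and 0.05 (SK-N-BE(2)), and over all tested genes it was 0.09, 0.02, 0.01 and -0.00017.

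**Figure D1:**
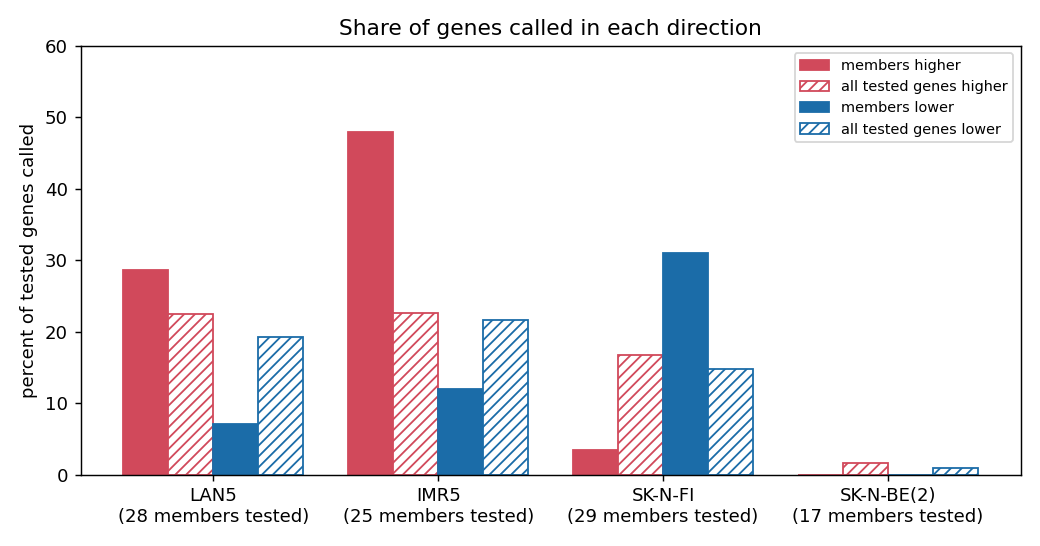
Share of tested genes called higher (red) or lower (blue) after GSK-J4 in each line, in percent on the y axis, with members as filled bars and all tested genes as hatched bars. In IMR5 48% of members were higher against 22.6% of all genes, and in SK-N-FI 31.0% of members were lower against 14.8%.

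Across the sensitive lines, 25 members were called in at least 1 line and 7 in at least 2. The matching shares over all genes were not computed. In the single lines 41.7% (LAN5), 44.1% (IMR5) and 31.6% (SK-N-FI) of all tested genes were called. The counts in this paragraph are therefore descriptions and show nothing particular to the members. IRF1 was the one member higher in all 3, and IFIT1 the one lower in all 3. ISG20 was higher in LAN5 and IMR5, OAS3 lower in LAN5 and SK-N-FI, and IFIT5 lower in IMR5 and SK-N-FI. PARP9 and IFI35 were called in opposite directions in different lines. Of the rest, 13 members were higher in 1 line only and 5 lower in 1 line only, counting calls and not tested differences. The 8 members called nowhere were IFIH1, DHX58, OAS2, OASL, RSAD2, MX1, MX2 and IFI27.

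**Figure D2:**
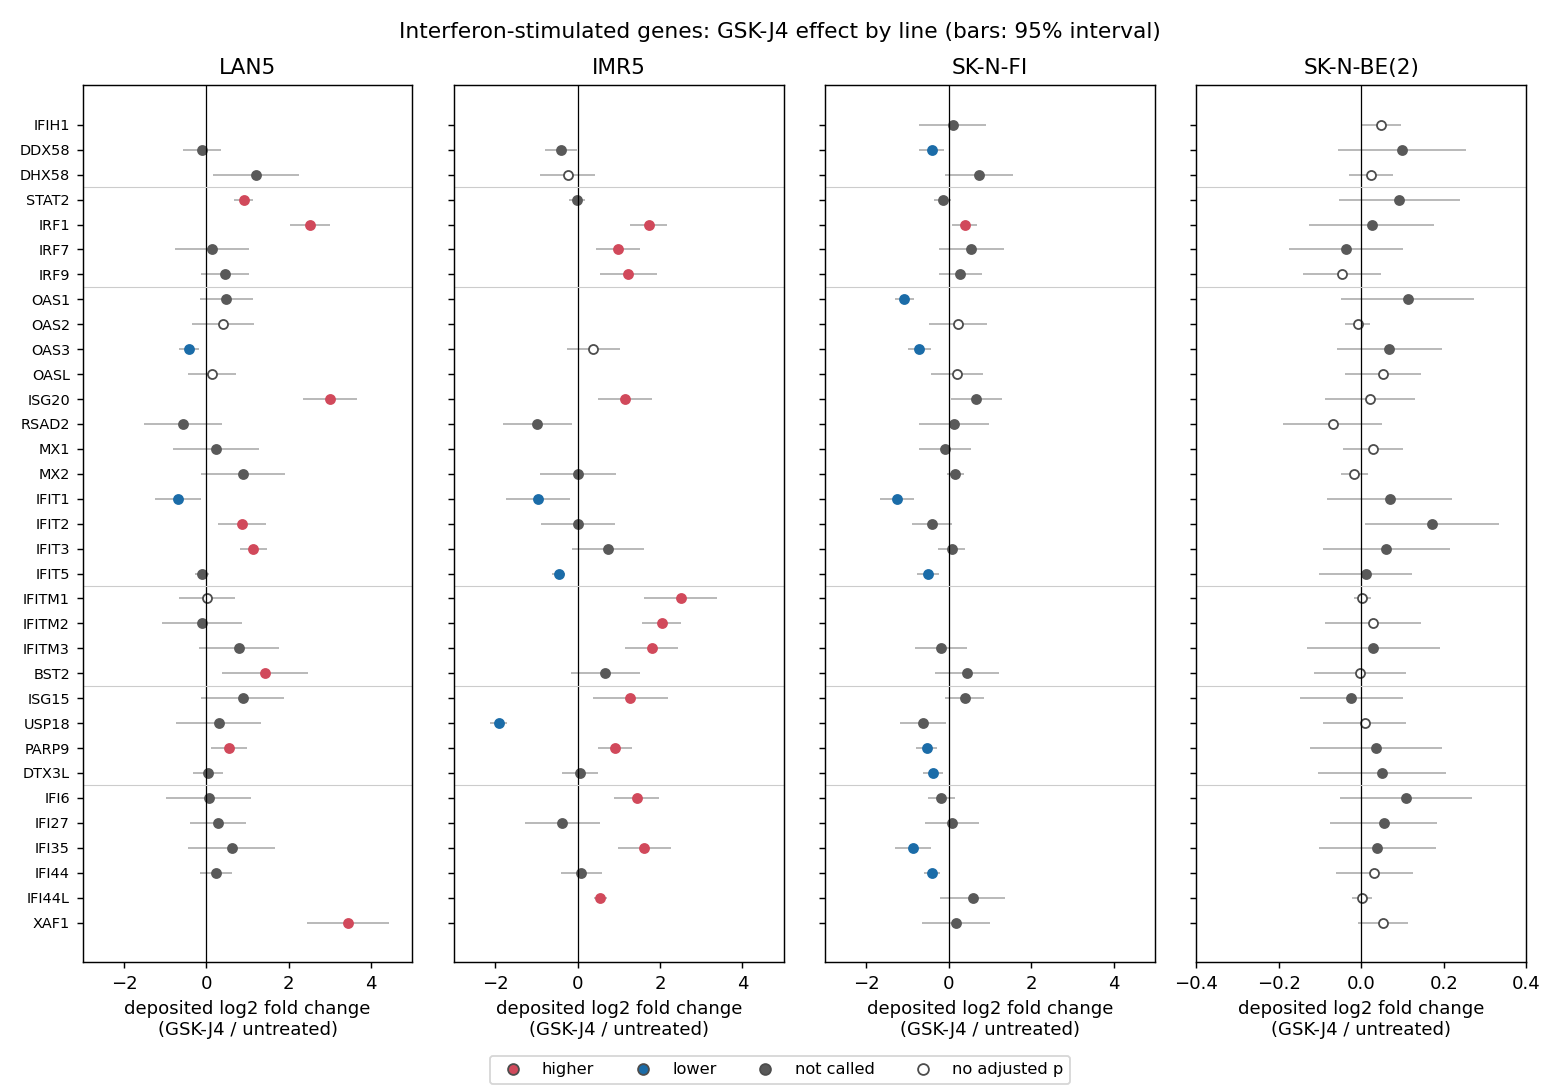
Deposited log2 fold change (x axis, GSK-J4 over untreated, bars for the 95% interval) of each member (y axis, grouped by role) in the 4 lines, with the x axis of SK-N-BE(2) narrower than the others. Called members are red (higher) or blue (lower): red dominates in IMR5, where 12 members rose, and blue in SK-N-FI, where 9 fell.

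The cytoplasmic RNA sensors gave 1 call. DDX58, the gene for RIG-I, had means of 60.7 (LAN5), 93.6 (IMR5), 275 (SK-N-FI) and 70.1 (SK-N-BE(2)). The authors' deposited table for SK-N-FI has it called lower, at -0.41 ± 0.16 (log2 change and SE, adjusted p = 0.0296), which corresponds to means of 316 without and 235 with GSK-J4. DHX58, the gene for the related helicase LGP2, had a mean of 4.87 in LAN5, where the authors' deposited table gives 1.21 ± 0.53 (adjusted p = 0.0547), just outside the threshold. IFIH1 stayed under a mean of 10 wherever it had a row, and it had none in LAN5 and IMR5.

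Among the transcription factors, all 4 members were called in at least 1 line, and none was called lower. By line, 2 (LAN5), 3 (IMR5) and 1 (SK-N-FI) of the 4 were called. The matching share of all genes over the lines was not computed, so the count of 4 is a description. Counts within each group of members are read against the backgrounds of the lines given above. IRF1 is a factor induced by interferon gamma that activates many antiviral genes. In LAN5 its deposited change was 2.51 ± 0.24 (SE, adjusted p = 8.34e-24), which is 6.31-fold with the prior removed, from 22.8 to 144 normalized counts. For IMR5 the authors' deposited table gives 1.72 ± 0.23 (adjusted p = 6.71e-13), 3.55-fold, from 39.6 to 141. For SK-N-FI the authors' deposited table gives 0.38 ± 0.15 (adjusted p = 0.0364), 1.32-fold, from 154 to 204. Among the sensitive lines, the untreated level of IRF1 was lowest where the rise was largest. The treated levels lay closer together than the untreated ones. Both levels are implied by the pooled mean and the fold, in tables that were normalized separately, so the pattern is a description and was not tested. The SK-N-FI call is lost when p-values are adjusted over all genes with a p-value, without the independent filter of DESeq2. In SK-N-BE(2) the mean was 57.0 and the deposited change 0.03 ± 0.08 (adjusted p = 0.966).

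STAT2, which acts together with IRF9, rose in LAN5 from 228 to 431 normalized counts, with a deposited change of 0.91 ± 0.12 (adjusted p = 1.38e-13). Its other values in the authors' deposited tables, none called, are -0.01 ± 0.10 (IMR5), -0.15 ± 0.10 (SK-N-FI) and 0.09 ± 0.08 (SK-N-BE(2)). The further rises among these factors were in IMR5, in IRF9, the DNA-binding subunit of the complex, and IRF7, which amplifies interferon alpha induction. IRF9 went from 15.9 to 43.4, 2.73-fold, with a deposited change of 1.24 ± 0.35 (adjusted p = 0.00118). IRF7 went from 30.5 to 64.2, 2.10-fold, with a deposited change of 0.98 ± 0.27 (adjusted p = 0.000987). Of the 50-base words in IRF9 transcripts, 43.6% also occur in the overlapping gene AL136295.5 on the same strand, so how its reads were counted is uncertain.

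The nucleic acid effectors degrade viral RNA or block its translation and replication. Of these 12 genes, 3 rose and 2 fell in LAN5 (10 tested), 1 rose and 2 fell in IMR5 (7 tested), and 4 fell and none rose in SK-N-FI (10 tested). ISG20 encodes an exonuclease that digests single-stranded RNA. In LAN5 it rose from 7.98 to 81.3 normalized counts, 10.2-fold, with a deposited change of 2.99 ± 0.33 (adjusted p = 1.93e-18). In IMR5 it rose from 16.5 to 41.2, 2.50-fold, with a deposited change of 1.15 ± 0.33 (adjusted p = 0.00148). In SK-N-FI its deposited change of 0.66 ± 0.31 was not called (adjusted p = 0.0953), with means of 20.7 and 35.8. Without GSK-J4 the lines ran from LAN5 (lowest) through IMR5 to SK-N-FI, and with it the order of these means was the reverse. The means are implied by the pooled mean and the fold, in tables that were normalized separately, so the order is a description.

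The oligoadenylate synthetases make the second messenger that activates RNase L. OAS1 (chr12:112906777-112933222), OAS3 (chr12:112938352-112973249) and OAS2 (chr12:112978395-113011723) lie side by side on the plus strand of GRCh38. OAS1 fell in SK-N-FI from 638 to 298 normalized counts, with a deposited change of -1.08 ± 0.12 (adjusted p = 9.86e-19). In LAN5 its mean was 27.4 with an uncalled deposited change of 0.49 ± 0.33 (adjusted p = 0.247), and IMR5 has no row for it. OAS3 fell in SK-N-FI from 1807 to 1087, with a deposited change of -0.71 ± 0.15 (adjusted p = 9.85e-06). It fell in LAN5 from 283 to 210, with a deposited change of -0.42 ± 0.13 (adjusted p = 0.00256), while in IMR5 it was close to undetected, with a mean of 0.609. OAS2, their neighbour, had a mean of at most 1.65 in any line, and OASL, an enzymatically inactive relative on the same chromosome, had one under 1 in LAN5 and SK-N-FI and of 12.9 in SK-N-BE(2).

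The IFIT proteins bind viral RNA ends that lack host-type caps and stop their translation. IFIT2 (chr10:89283694-89309276), IFIT3 (chr10:89327894-89340971), IFIT1 (chr10:89392546-89406486) and IFIT5 (chr10:89414586-89421001) form 1 cluster, and its members moved in opposite directions. In LAN5, IFIT3 rose from 88.9 to 200 normalized counts, with a deposited change of 1.14 ± 0.17 (adjusted p = 1.77e-10). IFIT2 rose there from 25.1 to 48.4, with a deposited change of 0.87 ± 0.29 (adjusted p = 0.00896). IFIT1, in the same line, fell from 48.0 to 28.8, with a deposited change of -0.68 ± 0.28 (adjusted p = 0.0381). In LAN5 the genes at the IFIT2 end of the cluster thus rose while IFIT1 fell.

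IFIT1 showed its largest fall in SK-N-FI, from 119 to 46.5, with a deposited change of -1.26 ± 0.21 (adjusted p = 4.96e-08). In IMR5, at a mean of 17.7, its deposited change was -0.96 ± 0.39 (adjusted p = 0.036). In LAN5 the call is lost when the table is centred on its median change, and in LAN5 and IMR5 at an adjusted p under 0.01. IFIT5 was the most abundant of the cluster. It fell in IMR5 from 1043 to 757, with a deposited change of -0.46 ± 0.08 (adjusted p = 8.66e-08). It fell in SK-N-FI from 351 to 243, with a deposited change of -0.51 ± 0.14 (adjusted p = 0.000985). In SK-N-BE(2), IFIT5 went from 975 to 984, and the 95% interval of its log2 change with the prior removed ran from -0.12 to 0.14.

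The dynamin-like GTPases MX1 and MX2 trap viral nucleocapsids, and RSAD2 (viperin) makes a chain-terminating nucleotide. None was called in any line. MX2 in SK-N-FI was abundant, at 1984 normalized counts without and 2223 with GSK-J4, and the 95% interval of its log2 change with the prior removed ran from -0.06 to 0.38. RSAD2 in IMR5, at a mean of 11.9, gave a deposited change of -0.98 ± 0.43 (adjusted p = 0.0515), just outside the threshold.

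Membrane restriction factors stop enveloped viruses as they enter or leave the cell. The 3 IFITM genes sit within chr11:307631-327537 and all rose in IMR5. IFITM2 rose there from 26.1 to 119 normalized counts, 4.55-fold, with a deposited change of 2.04 ± 0.25 (adjusted p = 1.13e-15). IFITM3 rose from 13.7 to 56.5, 4.13-fold, with a deposited change of 1.79 ± 0.32 (adjusted p = 1.4e-07). IFITM1, at a mean of 13.8, had a deposited change of 2.50 ± 0.45 (adjusted p = 1.56e-07). In the other lines none of the 3 was called, and IFITM1 and IFITM2 have no row in SK-N-FI. These genes are near copies: 32.0% of the 50-base words of IFITM1, 34.1% of IFITM2 and 17.4% of IFITM3 occur in transcripts of other genes, so which of them the reads came from is uncertain. BST2 (tetherin), which holds budding virions at the cell surface, rose in LAN5 with a deposited change of 1.43 ± 0.54 (adjusted p = 0.0205), at a mean of 3.001.

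ISG15 is a ubiquitin-like modifier, and USP18 removes it from proteins and also blocks signalling at IFNAR2. USP18 gave the largest fall of the list. In IMR5 it went from 827 to 216 normalized counts, 3.83-fold lower, with a deposited change of -1.91 ± 0.11 (adjusted p = 1.63e-67). In SK-N-FI its deposited change of -0.63 ± 0.28 was not called (adjusted p = 0.0742), and in LAN5 its mean was 2.14. ISG15 in IMR5 moved the other way, with a deposited change of 1.28 ± 0.47 (adjusted p = 0.0157), at a mean of 2.61. Of the 50-base words of USP18, 23.4% occur in other genes, mainly USP41.

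PARP9 and DTX3L are partners in a complex of an ADP-ribosyltransferase and a ubiquitin ligase, and they share the ISRE core printed above. In SK-N-FI both fell. PARP9 went from 485 to 332 there, with a deposited change of -0.53 ± 0.13 (adjusted p = 0.000346), and DTX3L went from 648 to 496, with a deposited change of -0.38 ± 0.12 (adjusted p = 0.0085). In IMR5, PARP9 rose from 74.4 to 144, with a deposited change of 0.91 ± 0.21 (adjusted p = 4.45e-05). In LAN5 it rose from 54.8 to 82.2, with a deposited change of 0.56 ± 0.22 (adjusted p = 0.03). DTX3L went from 83.1 to 86.6 in IMR5 and from 113 to 116 in LAN5, neither called. PARP9 was thus called without its neighbour in both MYCN-amplified sensitive lines, but the difference between PARP9 and DTX3L was not tested.

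The remaining members include mitochondrial and cytoplasmic proteins whose antiviral roles are less defined. IFI6, which protects cells from flavivirus replication, rose in IMR5 from 25.3 to 75.4, 2.99-fold, with a deposited change of 1.44 ± 0.28 (adjusted p = 1.44e-06). IFI35 rose in IMR5 from 15.7 to 56.8, 3.62-fold, with a deposited change of 1.62 ± 0.33 (adjusted p = 3.64e-06). In SK-N-FI, IFI35 fell from 90.2 to 47.1, with a deposited change of -0.87 ± 0.22 (adjusted p = 0.000499). In these implied means, treated IMR5 and treated SK-N-FI were closer together in IFI35 than the untreated lines. The tables were normalized separately, so this is a description and was not tested.

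IFI44L (chr1:78619922-78646145) and IFI44 (chr1:78649796-78664078) are neighbours. IFI44L rose in IMR5 from 1000 to 1473 normalized counts, with a deposited change of 0.55 ± 0.08 (adjusted p = 1.51e-11). IFI44, at a mean of 52.7 in IMR5, had an uncalled deposited change of 0.09 ± 0.26 (adjusted p = 0.814). In SK-N-FI, IFI44 fell from 997 to 745, with a deposited change of -0.41 ± 0.10 (adjusted p = 3.00e-04), while IFI44L had a mean of 12.4. XAF1, an antagonist of the caspase inhibitor XIAP, had the largest deposited rise of the list, 3.44 ± 0.51 in LAN5 (adjusted p = 1.42e-10), at a mean of 12.8. IFI27 was not called, with means between 8.21 and 29.5.

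The lines differed in the mean level of the members, over both conditions. To set them side by side, each mean was scaled to the table's summed means as CPM, the usual library-size unit. The tables were normalized separately and there is no spread over libraries, so the order of lines is a description. The summed level of the members was 151 CPM (LAN5), 213 CPM (IMR5), 224 CPM (SK-N-BE(2)) and 549 CPM (SK-N-FI). SK-N-FI had the highest level of 18 members, SK-N-BE(2) of 8, IMR5 of 4 and LAN5 of 3. Some of these were near ties, such as IRF9 (2.27 CPM in LAN5, 2.26 in SK-N-FI) and IRF7 (2.46 in SK-N-BE(2), 2.44 in IMR5). IFIT3 was another (9.49 in SK-N-FI, 9.36 in LAN5). Besides IRF9, LAN5 led in ISG20 and XAF1, both called higher there with GSK-J4. The matching counts over all genes were not computed. A level of at least 1 CPM was reached by 15 members (LAN5), 16 (IMR5), 22 (SK-N-FI) and 21 (SK-N-BE(2)).

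MX2 was the clearest case of a gene abundant in 1 line. Its mean was 2103 normalized counts in SK-N-FI, against 2.18 (IMR5), 1.87 (LAN5) and 1.44 (SK-N-BE(2)). IFI44L was at 1236 in IMR5, against 12.4 (SK-N-FI) and 0.776 (SK-N-BE(2)), with no row in LAN5. USP18 was at 521 in IMR5, against 33.6 (SK-N-FI), 14.7 (SK-N-BE(2)) and 2.14 (LAN5). Neighbouring genes did not share these levels: MX1 beside MX2 had a mean of 27.3 in SK-N-FI, and IFI44 beside IFI44L one of 52.7 in IMR5. Per kilobase of annotated exon, the highest members were IFIT5 in LAN5 (14.4 CPM per kilobase), USP18 in IMR5 (12.6), IFI44 in SK-N-FI (26.5) and IFIT5 in SK-N-BE(2) (15.2).

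**Figure D3:**
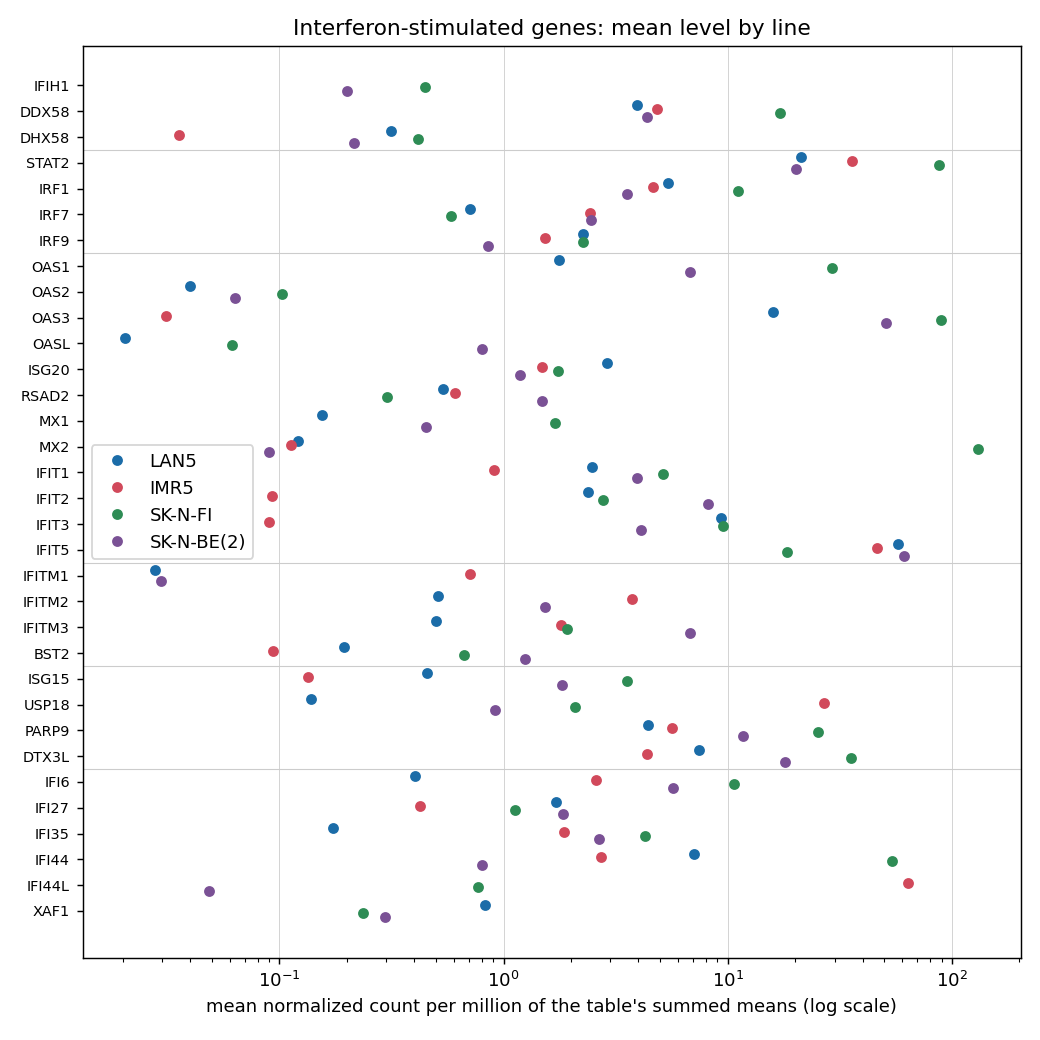
Mean level of each member in the 4 lines (x axis, mean normalized count scaled to CPM, log scale; y axis, members grouped by role); a line with no row has no point. MX2 in SK-N-FI and IFI44L and USP18 in IMR5 lie far to the right of the same genes in the other lines.

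Differences of the response between lines were tested on the log2 changes with the prior removed, by a two-sided Wald test with Benjamini-Hochberg adjustment over all genes whose mean reached 20 in each table compared, or 100 where SK-N-BE(2) entered. LAN5 minus SK-N-FI was positive and called for 9 of 14 members tested, and none was called negative (background 48.8% of 12985 genes). Among them were IRF1 (2.26, 95% interval 1.67 to 2.85, adjusted p = 1.05e-12) and OAS1 (1.64, 0.88 to 2.40, adjusted p = 9.87e-05). ISG20 (2.56, 1.53 to 3.59) is counted there too, but it reached the minimum mean only through the treated LAN5 libraries, since its implied untreated mean was 7.98, so its value is a description. IMR5 minus SK-N-FI was called for 6 of 13 members (background 45.4% of 12298 genes). It was positive for IFI6 (1.76, 1.08 to 2.45, adjusted p = 4.03e-06), PARP9, IRF1, IFI35 and IFITM3, and negative for USP18 (-1.21, -1.88 to -0.54, adjusted p = 0.00166). IFI35 (2.79, 1.92 to 3.66) and IFITM3 (2.28, 1.23 to 3.33) entered only through the treated IMR5 libraries, with implied untreated means of 15.7 and 13.7, so their values are descriptions. Counts of called members that include such genes are no support for a direction of the list. The 2 comparisons share the SK-N-FI table, and the share of members called in IMR5 minus SK-N-FI is near its background.

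The mean of LAN5 and IMR5 minus SK-N-FI was called for 5 of 9 members, all positive (background 44.2% of 11881 genes). They were IRF1 (1.85, 1.38 to 2.31, adjusted p = 1.64e-13), ISG20 (1.54, 0.65 to 2.44, with the same limit), PARP9 (1.32, 0.91 to 1.72, adjusted p = 4.22e-09), STAT2 and IFI44. Without LAN5, the calls for STAT2, ISG20 and IFI44 are lost, so they rest on that line, and without IMR5, 9 members were called. SK-N-FI is the only sensitive line without MYCN amplification, so MYCN status and the line cannot be told apart.

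The MYCN-amplified sensitive lines were also compared with each other. The share of members called in LAN5 minus IMR5 was below the background of that test, so the count shows nothing particular to the members. LAN5 minus IMR5 was called for 4 of 9 members, all positive (background 55.9% of 12679 genes): ISG20 (2.03, 0.99 to 3.06, with the same limit), STAT2 (0.93, 0.63 to 1.24, adjusted p = 1.45e-08), IRF1 (0.83, 0.13 to 1.52, adjusted p = 0.0363) and IFIT5 (0.35, 0.12 to 0.58, adjusted p = 0.00586). The mean of the sensitive lines minus SK-N-BE(2) could be tested for 2 members only, those with a mean of at least 100 in every table (background 59.1% of 8982 genes). IFIT5 was called, at -0.38 (-0.56 to -0.20, adjusted p = 8.68e-05), and STAT2 was not, at 0.12 (-0.12 to 0.36, adjusted p = 0.41). Leaving out the IMR5 table or the SK-N-FI table gave 2 calls in each case, and a minimum mean of 50 gave 3 of 6.

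**Figure D4:**
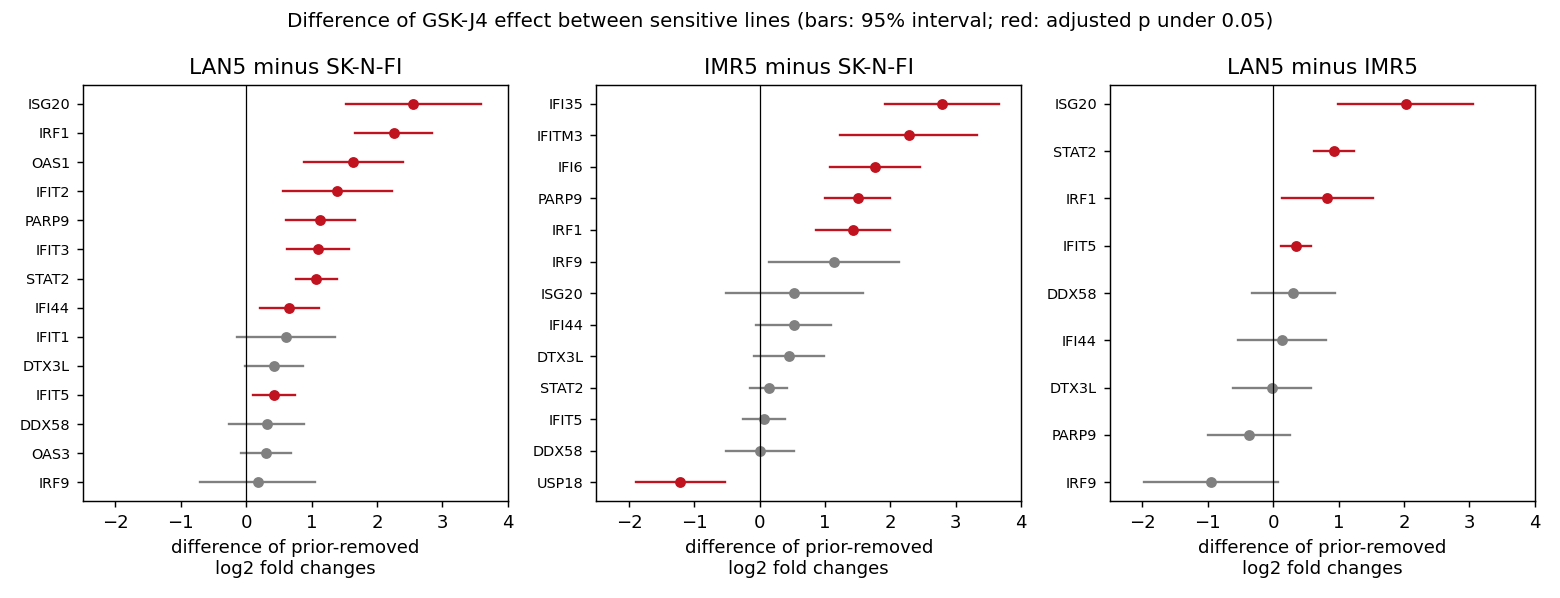
Difference between sensitive lines in the log2 change after GSK-J4 with the prior removed (x axis, points with 95% intervals) for each member tested (y axis), red where the adjusted p is under 0.05. In LAN5 minus SK-N-FI 9 of 14 members are red and positive, and in IMR5 minus SK-N-FI USP18, at -1.21, is the one red member below 0.

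In SK-N-BE(2) the intervals bound the change for the more abundant members. With the prior removed, the 95% interval of the log2 change ran from -0.07 to 0.24 for OAS3, from -0.16 to 0.32 for DTX3L, from -0.21 to 0.33 for PARP9 and from -0.11 to 0.59 for OAS1. The largest was IFIT2, which went from 116 to 147, with an interval from 0.02 to 0.67 and an adjusted p of 0.43 in the authors' deposited table. Members with a mean under 100 in this line have no such interval here.

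Upstream and around the members, 107 further genes of the pathway were followed as 6 lists. Of 81 tested in LAN5, 37 rose and 11 fell, of 64 in IMR5, 27 rose and 7 fell, and of 77 in SK-N-FI, 19 rose and 17 fell. These are 45.7% and 13.6% in LAN5, 42.2% and 10.9% in IMR5, and 24.7% and 22.1% in SK-N-FI, beside backgrounds of 22.5% and 19.2%, 22.6% and 21.6%, and 16.8% and 14.8%. The counts of the smaller lists below are read against the same backgrounds, and lists of few genes near them, such as the receptors in LAN5 and SK-N-FI, show nothing about the list. None of 57 was called by DESeq2 in SK-N-BE(2). Of 85 with a row there, 4 had an unadjusted p under 0.05, beside 4.96% of all genes with a p-value. Interferon genes themselves were at most barely detected: of 19 listed, rows were present for 1 (LAN5), 1 (IMR5), none (SK-N-FI) and 4 (SK-N-BE(2)), and the highest mean was 1.73, for IFNK in LAN5.

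Among receptors and kinases, 3 of 9 tested rose and 1 fell in LAN5, 5 of 9 rose in IMR5, and 2 of 9 rose and 3 fell in SK-N-FI. IL10RB, a subunit of the interferon lambda receptor, rose in all 3, the authors' deposited tables giving 0.86 ± 0.20 (LAN5), 0.77 ± 0.19 (IMR5) and 0.59 ± 0.23 (SK-N-FI). IFNAR1, the type I receptor, was called in each of these lines, at 0.31 ± 0.08, 0.21 ± 0.08 and -0.55 ± 0.11 in the same order, per the authors' deposited tables. IFNGR1, the ligand-binding chain for interferon gamma, rose in IMR5 and SK-N-FI, at 1.24 ± 0.12 and 0.55 ± 0.11, per the authors' deposited tables.

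Of the sensing adaptors and kinases, 4 of 11 tested rose in LAN5, 3 of 8 rose and 2 fell in IMR5, and 3 of 10 rose and 1 fell in SK-N-FI. TBK1, which phosphorylates IRF3, rose in LAN5 and SK-N-FI, at 1.04 ± 0.08 and 0.24 ± 0.09, per the authors' deposited tables. TLR3, the endosomal sensor of double-stranded RNA, rose in the same lines, at 2.54 ± 0.54 and 1.28 ± 0.40 in the authors' deposited tables. Its means there were low, at 6.52 (LAN5) and 10.5 (SK-N-FI). The TLR3 adaptor TICAM1 rose in IMR5 and SK-N-FI, at 1.76 ± 0.25 and 0.79 ± 0.14, per the authors' deposited tables. TRAF3 fell in IMR5 and SK-N-FI, at -0.86 ± 0.08 and -0.52 ± 0.18, per the authors' deposited tables. Of the double-stranded RNA genes, 1 of 4 tested rose and 3 fell in LAN5, 2 of 3 rose and 1 fell in IMR5, and 1 of 4 rose and 3 fell in SK-N-FI. ADAR, which edits double-stranded RNA so that it escapes sensing, fell in all 3 sensitive lines, at -0.16 ± 0.06 (LAN5), -0.43 ± 0.05 (IMR5) and -0.45 ± 0.15 (SK-N-FI), per the authors' deposited tables. Of the inhibitors of the pathway, 1 of 11 rose and 3 fell in LAN5, 3 of 10 rose and 1 fell in IMR5, and 1 of 9 rose in SK-N-FI. IRF2, a repressor that competes with IRF1 for its sites, rose in LAN5 and IMR5, at 0.53 ± 0.13 and 1.06 ± 0.15, per the authors' deposited tables. IRF2BP2, of the same list, rose in IMR5 and SK-N-FI, at 2.03 ± 0.24 and 1.22 ± 0.14 in the authors' deposited tables. It fell in LAN5, at -0.64 ± 0.09 in the authors' deposited table.

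Other interferon-stimulated genes outside the 33 rose more often than they fell in LAN5, 28 against 4 of 45 tested. The counts were 14 against 3 of 34 in IMR5 and 12 against 10 of 45 in SK-N-FI. APOL6, an apolipoprotein L family gene, rose in all 3, at 5.10 ± 0.46 (LAN5), 4.53 ± 0.32 (IMR5) and 1.51 ± 0.13 (SK-N-FI), per the authors' deposited tables. TRIM38 rose in all 3 as well, by 5.13 ± 0.43, 2.00 ± 0.49 and 0.73 ± 0.18 in the authors' deposited tables, and TRIM22 rose in LAN5 (4.61 ± 0.30) and IMR5 (3.06 ± 0.48). These tripartite motif genes encode ubiquitin ligases, and their rises were larger than those of any of the 33 members in LAN5 (at most 3.44, XAF1).

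Calls were also counted by the presence of an ISRE core, with no test. Among tested members with the core, 4 of 15 rose and 2 fell in LAN5, 7 of 15 rose and 2 fell in IMR5, and none of 17 rose and 6 fell in SK-N-FI. Among members with a window but no core, 3 of 7 rose in LAN5, 3 of 5 rose in IMR5, and 1 of 7 rose and 3 fell in SK-N-FI. Members without the core include DDX58, OAS1 and XAF1, whose windows hold GAAACGAAA. Lacking the searched core is therefore not the same as lacking an ISRE.

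Lists of cell markers were summed as mean normalized counts. The 9 immune and endothelial markers summed to 27.6 (LAN5), 23.9 (IMR5), 160 (SK-N-FI) and 72.8 (SK-N-BE(2)), of which VWF, an endothelial gene, gives 142 in SK-N-FI, and the pan-leukocyte gene PTPRC had a mean of at most 2.27. The 12 neuroblastoma markers summed to 84087 (LAN5), 45234 (IMR5), 37070 (SK-N-FI) and 120040 (SK-N-BE(2)). Of these, 11 of 12 tested fell in LAN5, 5 of 10 fell and 4 rose in IMR5, 6 of 11 fell and 2 rose in SK-N-FI, and 6 of 12 fell in SK-N-BE(2). Among them, STMN2 was at 1.35 in IMR5 and TH has no row in IMR5 or SK-N-FI. The 7 fibroblast markers summed to 1333 (LAN5), 3434 (IMR5), 2835 (SK-N-FI) and 33764 (SK-N-BE(2)), most of the last being LUM, at 19924. Of those tested, 2 rose and 3 fell in LAN5, 1 rose and 3 fell in IMR5, 2 rose and 2 fell in SK-N-FI, and 3 rose and 1 fell in SK-N-BE(2). In IMR5 the authors' deposited table has COL1A1 higher, at 3.22 ± 0.28, and LUM, PDGFRA and PDGFRB lower, at -0.74 ± 0.32, -0.61 ± 0.08 and -0.36 ± 0.12. The 6 Schwann and glial markers summed to 204 (LAN5), 68.0 (IMR5), 162 (SK-N-FI) and 49.9 (SK-N-BE(2)). The part of these markers in the results was not tested.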

How the data were processed

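Polyadenylated RNA of 24 libraries was sequenced with a stranded mRNA kit, per the labels' protocols, and processed with FastQC, STAR and DESeq2 on hg38, per the submitters' processing notes, which as used here give no versions. The deposited tables hold, per the file headers, 1 comparison per line: the mean normalized count (a signal), the log2 fold change with its SE, a test statistic (a score), and p-values before and after adjustment. No column of a single library was used, so the count models planned from the labels were not run, and precision comes from the deposited SE. DESeq2's prior was removed from the authors' log2 values by inverting its normal shrinkage, with the prior's width taken from the largest SE of each line. A running median of the SE over 501 genes located the mean at which the SE peaks. That mean decided which solution of the inversion was used for a gene. Values so obtained are given from a mean of 20 (100 in SK-N-BE(2)), and the means without and with GSK-J4 are those they imply. Between lines they were compared by a two-sided Wald test (scipy 1.17.1). A run on simulated data used the same shrinkage formula and prior width, so it could not test whether these suit the authors' values. The p-values of the Wald test treat the lines as fixed.

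Gene coordinates are from GENCODE on GRCh38, and promoter sequences from RefSeq on GRCh38.p14. The members, pathway lists and marker lists were chosen with earlier results of these data known. Of the members all may be named; of the pathway lists, up to 6 genes called the same way in at least 2 sensitive lines. Alternatives were a stricter adjusted p, a size threshold, other minimum means, other p-value adjustment, centring and leaving out a line's table; leaving out the 5 members with over 10% of 50-base words in other genes was added after the data were seen. Scripts used Python 3.11.15 and pandas 2.3.3. Some genes of the pathway and marker lists are counted in the lists but not reported here one by one.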

Additional observations from a re-analysis of the deposited data

Results flagged for a closer look

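Members whose response to GSK-J4 differed between lines are given here as differences of log2 changes with the prior removed, each past an adjusted p of 0.05 in the two-sided Wald test of the difference itself. Over all genes between 44.2% and 59.1% passed the same tests, so a passing difference is common in these data. LAN5 minus SK-N-FI passed for ISG20 (2.56), IRF1 (2.26), OAS1 (1.64), IFIT2 (1.39), PARP9 (1.13), IFIT3 (1.10), STAT2 (1.07), IFI44 (0.66) and IFIT5 (0.42). IMR5 minus SK-N-FI passed for IFI35 (2.79), IFITM3 (2.28), IFI6 (1.76), PARP9 (1.499), IRF1 (1.43) and USP18 (-1.21). The mean of LAN5 and IMR5 minus SK-N-FI passed for IRF1 (1.85), ISG20 (1.54), PARP9 (1.32), STAT2 (0.61) and IFI44 (0.59), and it shares its tables with both pairs. LAN5 minus IMR5 passed for ISG20 (2.03), STAT2 (0.93), IRF1 (0.83) and IFIT5 (0.35). The mean of the sensitive lines minus SK-N-BE(2) passed for IFIT5 (-0.38). ISG20 in LAN5 and IMR5, and IFI35 and IFITM3 in IMR5, had implied untreated means under 20 and were tested only because their treated means were higher, so their differences are descriptions.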

How the results depend on the processing

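Of 46 alternative values of counts over the members or pathway lists, 39 stayed within 1.5 times the reported count and none reversed. Of 690 alternative values of single genes, 655 kept their side of the threshold, 31 lost a call and 4 gained one. Testing only means of at least 50 gave 5 called members in LAN5 and 7 in IMR5, by testing fewer. Requiring a log2 change of at least 0.5 gave 6 in SK-N-FI. For the sensitive lines minus SK-N-BE(2), 3 members were called with a minimum mean of 50, 2 without the IMR5 table and 2 without the SK-N-FI table. For the MYCN-amplified lines minus SK-N-FI, 9 were called without the IMR5 table, where more members could be tested. Without the 5 members that share sequence with other genes, each sensitive line had 10 calls. No paired analysis was possible because the tables used here hold comparisons and no values of single libraries, and leaving out single libraries was not run for the same reason. Low means limit the rest: 16 members had no adjusted p in SK-N-BE(2), where the lowest mean tested was 26.2.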
